A study of Mus musculus with 12 samples.

Results

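AMP-activated protein kinase (AMPK) is the energy sensor of the cell, and the 9 genes described here encode its subunits and the proteins that switch it on. They were Prkaa1 and Prkaa2 (the catalytic α1 and α2 subunits), Prkab1 and Prkab2 (the β1 and β2 scaffold subunits), Prkag1 and Prkag2 (the nucleotide-binding γ1 and γ2 subunits), Stk11 (the kinase LKB1), Cab39 (the LKB1 partner MO25α) and Camkk2 (a calcium-dependent upstream kinase). The genes were chosen by name, and each was read on the brightest of its probe sets over the 12 arrays. They were 9 of 18193 genes with a named probe set. All 9 had a mean array signal of at least 20, the level below which a probe set was counted as dim, as did 11099 of all the genes. The 9 genes had 23 probe sets in all, of which 19 reached that level.

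The livers came from C57BL/6 mice that were 8 weeks old at the start and were fed for 8 weeks, with 4 livers in each of 3 groups. Mice of the MCD+HF+Met group ate a diet deficient in methionine and choline, rich in fat, with 0.1% metformin mixed in. Mice of the MCD+HF group ate that diet without metformin, and mice of the NC group ate normal chow. The livers were labelled as fasting, and the sex of the mice is not given in the sources used here. The diet is a nutritional model of steatohepatitis, in which missing nutrients, rather than obesity, drive the liver disease. RNA of each liver was hybridised to its own Affymetrix expression array. The signals were on a linear scale on which each array's average was set to 100, and with 4 arrays a group the precision is limited by their number. The questions were what metformin did on the diet (MCD+HF+Met against MCD+HF), what the diet did (MCD+HF against NC) and how far treated livers stood from normal ones (MCD+HF+Met against NC).

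AMPK works as a trimer of 1 α, 1 β and 1 γ subunit. When the ratio of AMP to ATP rises, AMP or ADP bound to γ favours phosphorylation of the activation loop of α by LKB1, which acts in a complex with the pseudokinase STRAD and with MO25, and calcium can act through CaMKK2 instead. Active AMPK in liver phosphorylates acetyl-CoA carboxylase and other enzymes of lipid synthesis, and metformin, which inhibits mitochondrial respiration, is widely used as an indirect activator of it. This control acts on the proteins, so the mRNA signals below say how much transcript was present and nothing of kinase activity.

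Facts of the tissue bear on every value that follows. The marker counts here stand beside shares of all probe sets called by the test described below. In MCD+HF against NC livers 25.4% were called higher and 18.4% lower. In MCD+HF+Met against MCD+HF livers 1.24% were called higher and 2.21% lower. All 7 measured hepatocyte markers fell on the diet, and their summed signal was 49671 to 60844 in MCD+HF+Met livers and 45061 to 55300 in MCD+HF livers, against 85556 to 99501 in NC livers. Of 9 macrophage and Kupffer cell markers, 6 rose and 1 fell in MCD+HF against NC livers and 5 fell in MCD+HF+Met against MCD+HF livers. Their summed signals were 2719 to 4081 in MCD+HF+Met, 6256 to 9210 in MCD+HF and 3260 to 4043 in NC livers. In MCD+HF+Met against NC livers 4 of the 9 were higher and 2 lower, beside 22.2% and 17.5% of all probe sets. The median log2 change of the 9 was then 0.74, beside 0.03 for all probe sets. Of 8 stellate cell and myofibroblast markers, 7 rose on the diet and 3 fell with metformin, with sums of 3577 to 5017 in MCD+HF+Met, 5287 to 6253 in MCD+HF and 1471 to 1912 in NC livers. The 6 lymphocyte markers and 4 skeletal muscle markers on the array all had mean signals under 20. In whole liver, fewer cells of a type and less RNA per cell cannot be told apart. The sums are on the authors' scaling of the arrays, and what the scaling contributes to them was not tested. The ratio of 3′ to 5′ signal of β-actin, a sign of RNA integrity, was 1.62 to 1.86 in MCD+HF+Met, 1.46 to 1.62 in MCD+HF and 1.54 to 1.88 in NC livers. The same ratio of Gapdh was 0.704 to 0.804 in MCD+HF+Met, 0.686 to 0.715 in MCD+HF and 0.692 to 0.717 in NC livers. What these shifts contribute to the changes of the 9 genes was not tested.

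The diet moved 4 of the 9 genes. Prkab2, Cab39 and Prkaa1 rose and Prkab1 fell in MCD+HF against NC livers, by 0.43 to 0.70 on the log2 scale, while Prkaa2, Prkag1, Prkag2, Stk11 and Camkk2 did not pass the test. Changes are given as log2 of (signal + 10), and folds as folds of (signal + 10), which understates the change of low signals. A change was called when limma's p-value, adjusted by Benjamini-Hochberg over all 22832 probe sets kept, was under 0.05. The 4 calls made up 44.4% of the 9 genes, beside 43.8% of all probe sets tested in that comparison, of which 25.4% were called higher and 18.4% lower. The same 4 of 9 count held for genes whose MCD+HF and NC signals did not overlap, beside 40.6% of all probe sets, and these were Prkab1, Prkab2, Stk11 and Cab39. The median change of the 9 genes was 0.03, and that of all probe sets was 0.06.

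With metformin, none of the 9 genes passed the test in MCD+HF+Met against MCD+HF livers by limma, beside 3.44% of all probe sets. On the brightest probe sets 1 of the 9, Prkab1, had an unadjusted limma p under 0.05. The share of all probe sets at that unadjusted level is not given, here or for the lists below. The methods' t-test gave none either after Benjamini-Hochberg adjustment, which the methods do not describe. Prkab1 was also the 1 gene whose signals in these groups did not overlap, beside 11.8% of all probe sets. The 9 changes ran between −0.16 and 0.28 with a median of 0.00, and the median absolute change was 0.07, beside 0.17 over all probe sets. The 95% confidence intervals (CI) of the 9 reached down to −0.48 for Prkaa1 and up to 0.77 for Prkag1, that is 0.715-fold and 1.70-fold.

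Between MCD+HF+Met and NC livers, 3 of the 9 genes passed the test, beside 39.7% of all probe sets. Prkab2 and Cab39 rose, beside 22.2% of probe sets called higher, and Stk11 fell, beside 17.5% called lower. Signals did not overlap for 4 genes, Prkaa1, Prkab2, Stk11 and Cab39, beside 34.8% of all probe sets. The comparisons share groups: MCD+HF livers enter the first 2, NC livers the last 2, and MCD+HF+Met livers the first and the third. The scaling of the arrays mattered for the balance of directions: with each array centred on its median instead, the median change of all probe sets in MCD+HF against NC livers was −0.08 in place of 0.06, and 42.0% of the called probe sets were higher in place of 58.1%. The share higher was 50.7% in place of 35.9% for MCD+HF+Met against MCD+HF livers and 45.3% in place of 55.9% for MCD+HF+Met against NC livers.

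**Figure D1:**
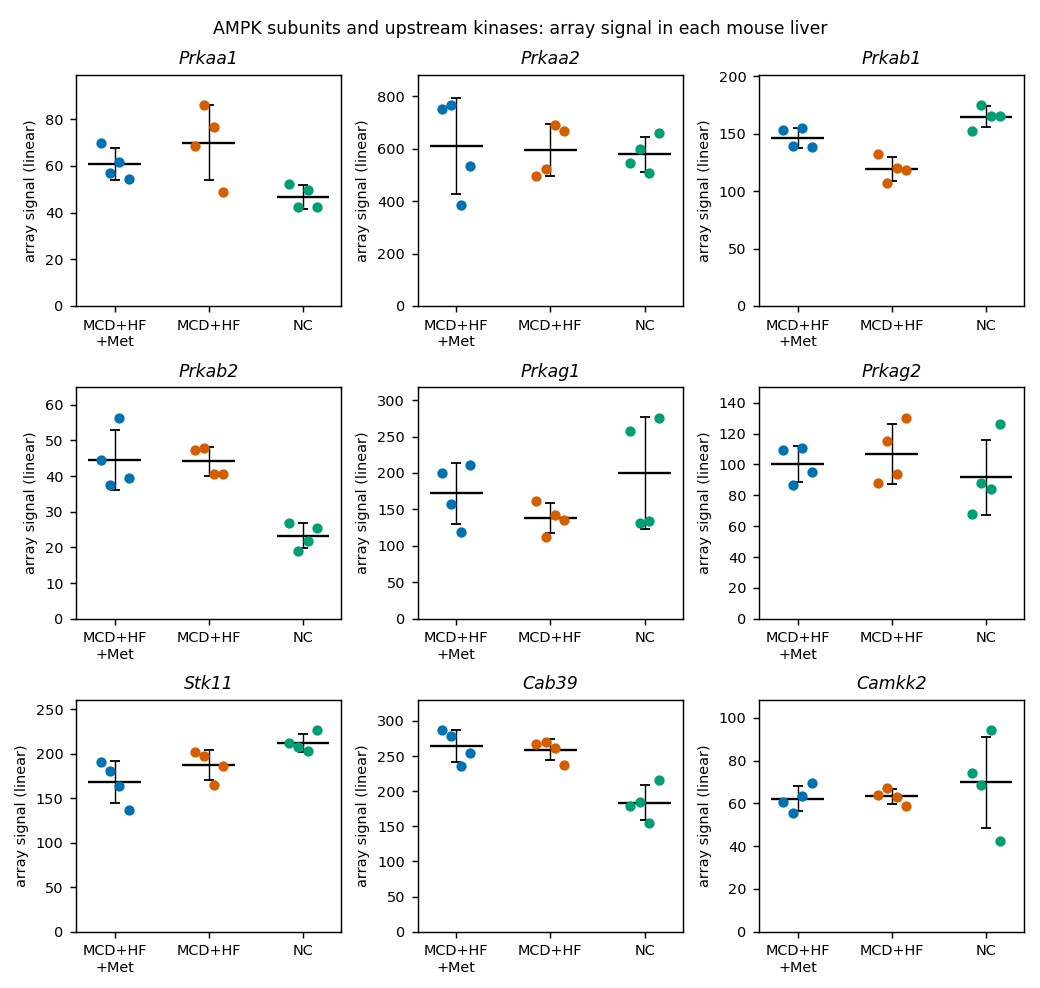
Array signal (linear, average of each array set to 100) of the 9 genes in each mouse liver, for the MCD+HF+Met, MCD+HF and NC groups from left to right; points are mice, the wide bar is the mean and the error bar the SD (n = 4). Prkab2 and Cab39 sit higher in both diet groups than in NC, Prkab1 is lowest in MCD+HF, and the 3 groups of Prkaa2 overlap.

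**Figure D2:**
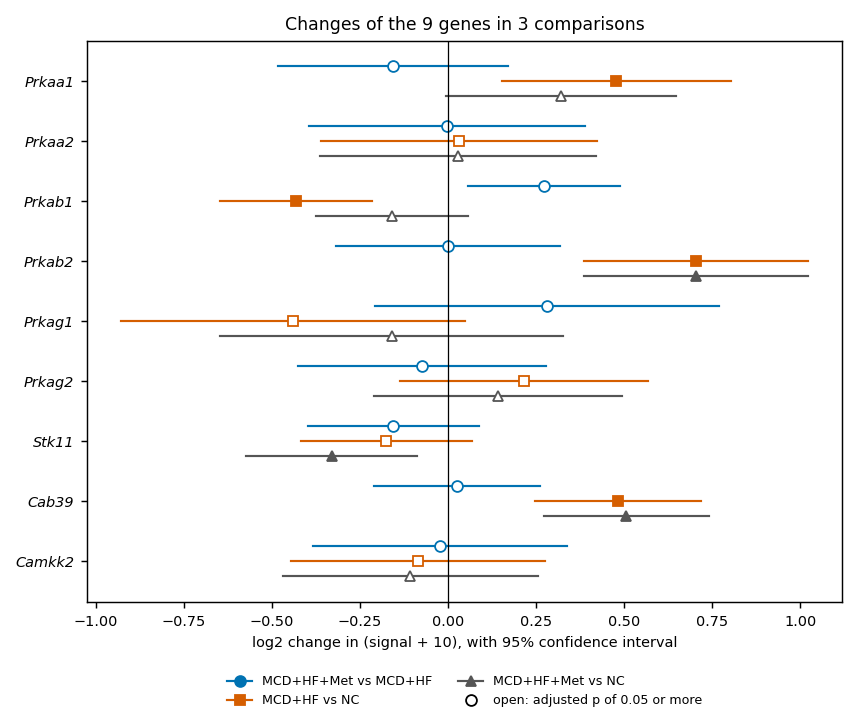
Change of each gene on the log2(signal + 10) scale in 3 comparisons, with the 95% confidence interval from limma; filled symbols have an adjusted p under 0.05. The filled symbols of MCD+HF against NC belong to Prkaa1, Prkab1, Prkab2 and Cab39, and no symbol of MCD+HF+Met against MCD+HF is filled.

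The catalytic subunits came first in the order of the enzyme. Prkaa1, the α1 subunit found in most tissues, had signals of 70.0, 57.1, 61.8 and 54.4 in MCD+HF+Met livers, 68.6, 86.2, 76.5 and 48.6 in MCD+HF livers, and 52.2, 42.4, 49.5 and 42.5 in NC livers. All 4 MCD+HF+Met livers and 3 of the 4 MCD+HF livers were above every NC liver, while the fourth MCD+HF mouse, at 48.6, lay among the NC livers. Prkaa1 averaged 70.0 ± 16.0 in MCD+HF livers against 46.6 ± 5.0 in NC livers (SD, n = 4 each), a rise of 0.48 (SE 0.15, limma adjusted p = 0.0195). The call was lost without MCD+HF replicate 2 (0.38, limma adjusted p = 0.0757) or replicate 3 (0.43, limma adjusted p = 0.0562), with quantile normalization (limma adjusted p = 0.0605) and with arrays centred on the median (limma adjusted p = 0.0609). Between MCD+HF+Met and MCD+HF livers the groups overlapped and the difference was −0.16 (95% CI −0.48 to 0.17). Between MCD+HF+Met and NC livers it was 0.32 (SE 0.15), with no overlap but a limma adjusted p of 0.110. From low to high the groups ran NC, MCD+HF+Met and MCD+HF, and neither pair of neighbours in this order passed the test by limma.

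Prkaa2, the α2 subunit, ranged from 384 to 768 in MCD+HF+Met livers, from 497 to 690 in MCD+HF livers and from 508 to 661 in NC livers. The groups overlapped throughout, and the SD was 30.1% of the mean in MCD+HF+Met, 16.7% in MCD+HF and 11.4% in NC livers. The difference was 0.00 between MCD+HF+Met and MCD+HF livers (95% CI −0.40 to 0.39) and 0.03 between MCD+HF and NC livers (95% CI −0.36 to 0.42). A second Prkaa2 probe set, 1434766_at, gave another picture. It averaged 504 ± 65.2 in MCD+HF+Met livers and 383 ± 63.9 in MCD+HF livers, against 466 ± 50.2 in NC livers, with changes of 0.39 with metformin (SE 0.13, limma adjusted p = 0.104) and −0.28 on the diet (SE 0.13, limma adjusted p = 0.0870). Neither passed the test, though the limma p before adjustment was 0.00781 with metformin and 0.0431 on the diet. On this probe set 2 of the 4 MCD+HF+Met livers were above all MCD+HF livers.

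The β subunits, which hold the trimer together and bind glycogen, moved in opposite directions on the diet on their brightest probe sets. The second Prkab1 probe set did not show the fall (−0.06, limma adjusted p = 0.786). The 250 bases before the annotated start of each gene are shown for this pair and for the other 2 genes called on the diet, because these are the stretches in which the genes that rose and the gene that fell can be set side by side. They are RefSeq sequences of build GRCm38.p6, written 5′ to 3′ on the strand of the gene, at chr5:116024429-116024678 on the minus strand for Prkab1, chr3:97657962-97658211 on the plus strand for Prkab2, chr15:5143611-5143860 on the plus strand for Prkaa1 and chr1:85793191-85793440 on the plus strand for Cab39. Capitals mark matches to 1 of 6 searched motifs on either strand.
Prkab1: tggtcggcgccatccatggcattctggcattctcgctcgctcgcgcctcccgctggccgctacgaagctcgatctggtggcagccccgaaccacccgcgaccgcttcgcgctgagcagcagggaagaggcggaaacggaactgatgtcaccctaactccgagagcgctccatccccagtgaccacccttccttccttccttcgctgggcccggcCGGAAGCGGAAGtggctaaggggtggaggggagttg
Prkab2: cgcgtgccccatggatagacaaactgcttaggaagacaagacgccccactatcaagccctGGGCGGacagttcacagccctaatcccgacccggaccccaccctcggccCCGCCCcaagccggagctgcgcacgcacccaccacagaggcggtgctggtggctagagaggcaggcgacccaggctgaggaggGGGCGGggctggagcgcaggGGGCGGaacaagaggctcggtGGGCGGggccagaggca
Prkaa1: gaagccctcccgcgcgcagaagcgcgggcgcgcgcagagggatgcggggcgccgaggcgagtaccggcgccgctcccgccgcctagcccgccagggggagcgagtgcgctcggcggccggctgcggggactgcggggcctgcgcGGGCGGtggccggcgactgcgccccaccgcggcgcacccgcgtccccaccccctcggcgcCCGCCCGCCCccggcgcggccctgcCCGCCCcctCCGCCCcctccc
Cab39: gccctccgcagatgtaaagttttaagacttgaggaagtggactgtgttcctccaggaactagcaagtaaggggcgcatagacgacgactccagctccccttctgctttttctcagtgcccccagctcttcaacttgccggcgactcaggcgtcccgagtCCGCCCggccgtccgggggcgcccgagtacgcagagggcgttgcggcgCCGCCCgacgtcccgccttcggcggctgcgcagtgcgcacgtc
The motifs were the GC box, spelled GGGCGG, the box named for its letters CCAAT, the ETS core, spelled CGGAAG, the core of the cyclic AMP response element, spelled TGACGT, the E-box, spelled CACGTG, and the TATA box, spelled TATAAA. Of all 32851 promoters of the same length in the table, 32.7% held the GC box, 33.8% the CCAAT box, 13.6% the ETS core, 6.47% the response element core, 6.02% the E-box and 12.4% the TATA box. Prkab1 had 2 adjoining ETS cores and no GC box. Prkab2 had 5 GC boxes, Prkaa1 had 5, of which a pair overlap by shared bases, and Cab39 had 2, with no match to any other motif in these 3. The share of G and C was 65.6% for Prkab1, 69.2% for Prkab2, 85.2% for Prkaa1 and 64.8% for Cab39, against a median of 52.4% over all promoters. Among the genes that were not called on the diet, the GC box also stood before Prkaa2 with 2 matches, Prkag1 with 1 and Camkk2 with 1, and before 2 of the 3 annotated starts of Prkag2, with 2 matches and 1 match. Stk11 had no GC box and 3 CCAAT boxes. Prkag1 also held 3 ETS cores, 1 CCAAT box and 1 response element core, and Prkag2 had 1, 2 and 0 CCAAT boxes at its 3 starts. A match describes the letters of these windows and is not a binding site.

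Prkab1, the β1 subunit, had signals of 153, 139, 155 and 139 in MCD+HF+Met livers, 133, 107, 120.2 and 119 in MCD+HF livers, and 153, 175, 165 and 166 in NC livers. Every MCD+HF liver was below every liver of both other groups, and the MCD+HF+Met and NC groups overlapped. Prkab1 fell by 0.43 in MCD+HF against NC livers (SE 0.10, 0.741-fold, limma adjusted p = 0.00277). With metformin it was 0.27 higher than on the diet alone (95% CI 0.06 to 0.49, 1.21-fold), with a limma p of 0.0166 before and 0.153 after adjustment. Treated livers differed from NC livers by −0.16 (95% CI −0.38 to 0.06). From low to high the groups ran MCD+HF, MCD+HF+Met and NC, and neither pair of neighbours in this order passed the test by limma. The second probe set, 1452457_a_at, with a mean signal of 54.9 over the 12 arrays, did not show the fall: it changed by −0.06 on the diet (95% CI −0.41 to 0.29, limma adjusted p = 0.786) and by 0.09 with metformin (95% CI −0.26 to 0.44).

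Prkab2, the β2 subunit, which is abundant in muscle, had signals of 44.5, 37.5, 56.4 and 39.5 in MCD+HF+Met livers, 47.4, 47.9, 40.6 and 40.7 in MCD+HF livers, and 26.9, 19.1, 21.7 and 25.5 in NC livers. All 8 livers on the diet were above all 4 NC livers, whether or not the diet held metformin. Prkab2 rose by 0.70 in MCD+HF against NC livers (SE 0.15, 1.63-fold, limma adjusted p = 0.00128) and by 0.70 in MCD+HF+Met against NC livers (SE 0.15, limma adjusted p = 0.00150). Metformin made a difference of 0.00 on the diet (95% CI −0.32 to 0.32). A second probe set, 1435874_at, rose by 0.73 on the diet (SE 0.16, limma adjusted p = 0.00176) and by 0.47 in MCD+HF+Met against NC livers (SE 0.16, limma adjusted p = 0.0319), again without overlap, and differed by −0.27 between MCD+HF+Met and MCD+HF livers (95% CI −0.61 to 0.08). The third probe set of the gene, 1442001_at, was dim. The 4 skeletal muscle markers summed to 23.7 to 59.5 in MCD+HF+Met, 27.3 to 40.2 in MCD+HF and 33.6 to 83.0 in NC livers, each of the 4 with a mean under 20.

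The genes whose profile over the 12 arrays lay nearest to that of Prkab2 were Pxdn, Pbxip1 and Mgat4b, with root mean square differences of 0.09, 0.11 and 0.11 on the log2 scale after each profile was centred on its own mean, beside a median of 0.43 over 11098 genes. Pxdn encodes the matrix peroxidase peroxidasin and Mgat4b a Golgi enzyme of N-glycan branching. Pxdn averaged 112 in MCD+HF+Met livers and 111 in MCD+HF livers, against 60.9 in NC livers. Among the 9 genes, the nearest to Prkab2 was Cab39 with a difference of 0.21, and the farthest was Prkag1 with 0.60. The likeness is a description, and the arrays share their livers and scaling.

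Whether the balance of 2 paralogs shifted was tested on the difference of their log2 signals within each liver, by two-sided exact permutation tests over 9 pairs and comparisons, in which 0.0286 is the smallest p that 4 against 4 livers allow. Prkab1 minus Prkab2 was 1.58, 1.65, 1.31 and 1.59 in MCD+HF+Met livers, 1.31, 1.02, 1.36 and 1.34 in MCD+HF livers, and 2.14, 2.67, 2.47 and 2.31 in NC livers. Both diet groups lay wholly below the NC group, and they overlapped each other. Between MCD+HF and NC livers the shift was −1.14 (exact p = 0.0286, adjusted over the 9 tests p = 0.129) and that between MCD+HF+Met and NC livers was −0.86 (exact p = 0.0286, adjusted p = 0.129). Both are at the smallest exact p, and an adjusted p under 0.05 could have been reached only if most of the 9 tests had been at it, so the adjusted values say little about these shifts. Between MCD+HF+Met and MCD+HF livers it was 0.27 (exact p = 0.114). For Prkaa1 minus Prkaa2 and Prkag1 minus Prkag2 the groups overlapped in all comparisons, and the differences ran between −0.66 and 0.45 (exact p between 0.114 and 0.657). The place of a pair on this scale depends on its probes, so only shifts between groups can be read.

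**Figure D3:**
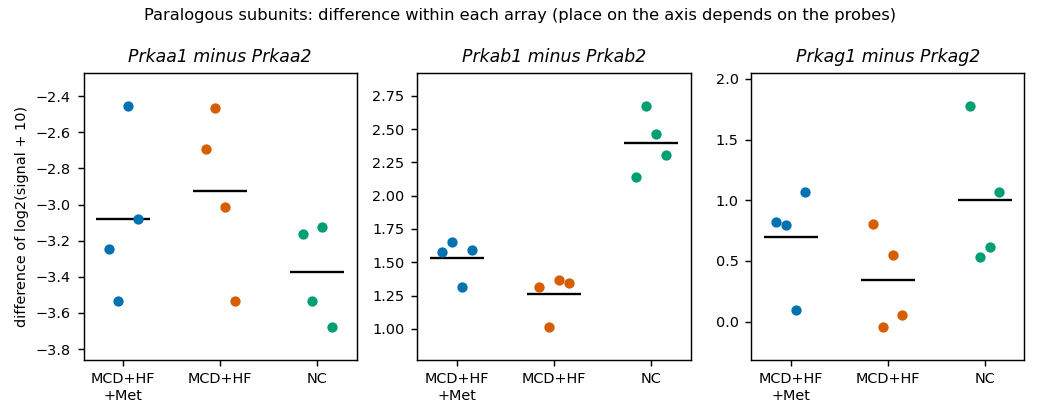
Difference of log2(signal + 10) between paralogous subunits within each liver, for the MCD+HF+Met, MCD+HF and NC groups from left to right; points are mice and the bar is the mean (n = 4). For Prkab1 minus Prkab2 the NC livers lie between 2.14 and 2.67, above all livers of both diet groups, and the other pairs overlap.

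The γ subunits bind the adenine nucleotides. Prkag1, the γ1 subunit, had signals of 200.3, 158, 119 and 211 in MCD+HF+Met livers, 161, 112, 142 and 136 in MCD+HF livers, and 257, 132, 135 and 276 in NC livers. The NC livers split into 2 high and 2 low mice, the groups overlapped in each comparison, and the SD in NC livers was 38.7% of the mean. The changes were −0.44 on the diet (95% CI −0.93 to 0.05, limma adjusted p = 0.134) and 0.28 with metformin (95% CI −0.21 to 0.77, limma adjusted p = 0.547). The other probe set of the gene, 1433533_x_at, whose probes can match related sequences, went the other way on the diet. It averaged 55.4 ± 7.7 in MCD+HF+Met livers and 48.5 ± 13.0 in MCD+HF livers, against 28.9 ± 9.0 in NC livers, and rose by 0.59 in MCD+HF against NC livers (SE 0.20, limma adjusted p = 0.0273). It rose by 0.77 in MCD+HF+Met against NC livers (SE 0.20, limma adjusted p = 0.00651). The direction of Prkag1 on the diet therefore depends on the probe set.

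Prkag2, the γ2 subunit, ranged from 86.5 to 111 in MCD+HF+Met livers, from 88.1 to 130.4 in MCD+HF livers and from 68.1 to 126 in NC livers, with overlap in every comparison. Its change on the diet was 0.22 (95% CI −0.14 to 0.57) and with metformin −0.07 (95% CI −0.43 to 0.28). The probe set 1423831_at gave −0.36 on the diet (95% CI −0.75 to 0.02) and 1423832_at gave 0.05 (95% CI −0.29 to 0.39), so the 3 probe sets of this gene above the dim level did not share a direction.

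**Figure D4:**
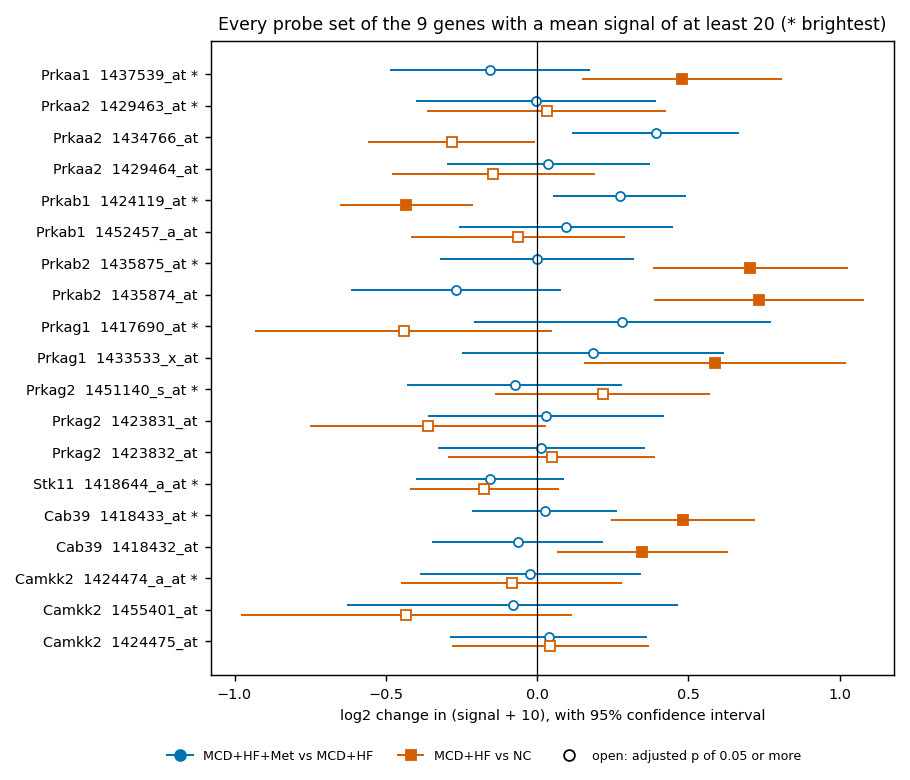
Change on the log2(signal + 10) scale, with the 95% confidence interval, of all 19 probe sets of the 9 genes with a mean signal of at least 20, for MCD+HF+Met against MCD+HF (circles) and MCD+HF against NC (squares); asterisks mark the brightest probe set of a gene and filled symbols an adjusted p under 0.05. Both Prkab2 and both Cab39 probe sets rise on the diet, while those of Prkab1, Prkag1 and Prkag2 differ among themselves.

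LKB1 and its partners stand upstream. Stk11, which encodes LKB1, had signals of 191, 180.4, 163 and 137 in MCD+HF+Met livers, 202, 197, 164 and 186 in MCD+HF livers, and 212, 207, 203 and 226 in NC livers. All livers of both diet groups were below all NC livers, and the diet groups overlapped. Stk11 averaged 168 ± 23.8 in MCD+HF+Met livers and 187 ± 16.7 in MCD+HF livers, against 212 ± 9.9 in NC livers (SD, n = 4 each). It fell by 0.33 in MCD+HF+Met against NC livers (SE 0.11, limma adjusted p = 0.0307). That call was lost without NC replicate 1 (limma adjusted p = 0.0576), 2 (0.0517) or 4 (0.0712), and without MCD+HF+Met replicate 3 (0.0603) or 4 (0.0895). In MCD+HF against NC livers the change was −0.17 (95% CI −0.42 to 0.07, limma adjusted p = 0.231), which passed the test with quantile normalization (−0.27, limma adjusted p = 0.0494) and with arrays centred on the median (−0.31, limma adjusted p = 0.0260). With metformin it was −0.16 (95% CI −0.40 to 0.09). The other Stk11 probe set, 1448062_at, was dim.

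Cab39, which encodes MO25α, the scaffold that holds LKB1 and STRAD in their active form, had signals of 286, 278, 236 and 254 in MCD+HF+Met livers, 267, 270.2, 262 and 237 in MCD+HF livers, and 178, 185, 155 and 216 in NC livers. All 8 livers on the diet were above all 4 NC livers. Cab39 rose by 0.48 in MCD+HF against NC livers (SE 0.11, 1.40-fold, limma adjusted p = 0.00234) and by 0.51 in MCD+HF+Met against NC livers (SE 0.11, 1.42-fold, limma adjusted p = 0.00188). The MCD+HF+Met and MCD+HF groups differed by 0.02 (95% CI −0.21 to 0.26). The second probe set, 1418432_at, rose by 0.35 on the diet (SE 0.13, limma adjusted p = 0.0430) but with overlapping groups, and its difference of 0.28 between MCD+HF+Met and NC livers did not pass the test (limma adjusted p = 0.101).

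Camkk2, the calcium and calmodulin-dependent kinase that can phosphorylate AMPK in place of LKB1, ranged from 55.4 to 69.6 in MCD+HF+Met livers, from 58.8 to 67.2 in MCD+HF livers and from 42.5 to 94.1 in NC livers. The NC livers enclosed both other groups, with an SD of 30.4% of the mean. The changes were −0.08 on the diet (95% CI −0.45 to 0.28) and −0.02 with metformin (95% CI −0.38 to 0.34). Of its other probe sets above the dim level, 1455401_at averaged 32.4 ± 15.2 in MCD+HF+Met livers and 33.6 ± 10.1 in MCD+HF livers, against 49.0 ± 14.1 in NC livers. It changed by −0.43 on the diet (95% CI −0.98 to 0.11, limma adjusted p = 0.186) and by −0.51 in MCD+HF+Met against NC livers (95% CI −1.06 to 0.03, limma adjusted p = 0.125), with overlapping groups. The other, 1424475_at, gave 0.04 on the diet (95% CI −0.28 to 0.36).

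The other LKB1 complex genes and upstream kinases fell on the diet or did not pass the test. Of 6 listed genes, 4 were tested: Strada and Stradb, which encode the STRAD pseudokinases, Cab39l, which encodes MO25β, and Map3k7, which encodes the kinase TAK1. On the diet none rose and 2 fell, Cab39l and Stradb, beside 25.4% of all probe sets called higher and 18.4% called lower. With metformin 1 of the 4 rose, beside 1.24%. The list median was −0.22 on the diet and 0.09 with metformin, beside 0.06 and −0.02 for all probe sets. Cab39l, the paralog of Cab39, had signals of 319 to 402 in MCD+HF+Met livers and 243 to 267 in MCD+HF livers, against 375 to 462 in NC livers, so that the MCD+HF livers were below all others. It fell by 0.63 on the diet (SE 0.10, limma adjusted p = 0.000113), whereas Cab39 rose by 0.48. With metformin Cab39l rose by 0.42 in MCD+HF+Met against MCD+HF livers (SE 0.10, limma adjusted p = 0.0352). This last call was lost without any 1 of the 4 MCD+HF livers or of MCD+HF+Met replicates 1, 2 and 3 (limma adjusted p between 0.0508 and 0.0871). Stradb ranged from 307 to 427 in MCD+HF+Met, from 282 to 333 in MCD+HF and from 363 to 451 in NC livers, and fell by 0.47 on the diet (SE 0.11, limma adjusted p = 0.00309), with 0.26 and a limma adjusted p of 0.221 for metformin. None of the 4, set against NC livers, passed the test by limma in MCD+HF+Met livers, beside 39.7% of all probe sets. Before adjustment 1 had a limma p under 0.05, without a share of all probe sets at that level.

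LKB1 also activates a family of AMPK-related kinases. Of 9 tested, 3 rose and none fell on the diet, beside 25.4% of all probe sets called higher and 18.4% called lower, with a list median of 0.22 beside 0.06 for all probe sets. With metformin 1 fell and none rose, beside 2.21% and 1.24% of all probe sets. That gene was Snrk, a sucrose non-fermenting related kinase, which averaged 411 ± 46.5 in MCD+HF+Met livers and 670.0 ± 134 in MCD+HF livers, against 457 ± 24.0 in NC livers. Every MCD+HF liver was above every liver of both other groups. Snrk fell by 0.68 with metformin (SE 0.13, limma adjusted p = 0.0112) and rose by 0.52 on the diet (SE 0.13, limma adjusted p = 0.00435). Sik1, a salt-inducible kinase that restrains gluconeogenic transcription, rose by 0.67 on the diet (SE 0.15, limma adjusted p = 0.00230). Between MCD+HF+Met and NC livers 3 rose, Mark2, Mark4 and Mark3, which are microtubule affinity-regulating kinases, and none fell, beside 22.2% of all probe sets called higher and 17.5% called lower.

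Phosphatases and other modulators of AMPK were 14 tested genes, of which 3 rose and 1 fell on the diet. These 4 of 14 are 28.6%, beside 43.8% of all probe sets called in that comparison. Of the 4, Ppp2ca (0.23, limma adjusted p = 0.0427) lost its call in 10 of 22 alternatives. None of the 14 passed the test with metformin by limma, beside 3.44% of all probe sets. Before adjustment 2 had a limma p under 0.05, with no share of all probe sets given at that level. Their median change was 0.15 on the diet and 0.02 with metformin, beside 0.06 and −0.02 for all probe sets. Ppm1b, a metal-dependent phosphatase of the family that can dephosphorylate AMPK, fell by 0.77 (SE 0.09, limma adjusted p = 4.17e-06). Atp6ap1, an accessory protein of the lysosomal proton pump on which a part of AMPK is activated, rose by 0.63 (SE 0.09, limma adjusted p = 4.29e-05), and Axin1, the scaffold that brings LKB1 to AMPK there, rose by 0.51 (SE 0.12, limma adjusted p = 0.00353). These 3 genes in MCD+HF+Met against NC livers were at −0.64, 0.66 and 0.76, each called by limma. Of the adenine nucleotide enzymes, 8 were tested, and on the diet 4 rose and 3 fell, beside 25.4% of all probe sets called higher and 18.4% called lower, with a median of 0.37 beside 0.06 for all probe sets. Nt5e, the ecto-nucleotidase that turns extracellular AMP into adenosine, had signals of 198 to 230 in MCD+HF+Met livers and 187 to 194 in MCD+HF livers, against 41.6 to 68.4 in NC livers, a rise of 1.72 on the diet (SE 0.13, limma adjusted p = 3.81e-08). Ampd3, an AMP deaminase, rose by 1.74 (SE 0.23, limma adjusted p = 1.83e-05), and Nt5c2, a cytosolic nucleotidase, by 1.49 (SE 0.14, limma adjusted p = 6.82e-07). Ak3, a mitochondrial adenylate kinase family member, fell by 0.79 (SE 0.09, limma adjusted p = 3.92e-06). None of the 8 passed the test with metformin by limma, beside 3.44% of all probe sets. Before adjustment 2 had a limma p under 0.05, again without a share of all probe sets at that level.

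Substrates of AMPK were 22 tested genes. On the diet 7 rose and 4 fell, which is 50% of them beside 43.8% of all probe sets, a share near the background. With metformin none passed the test by limma, beside 3.44% of all probe sets. Before adjustment 5 had a limma p under 0.05, a level for which no share of all probe sets is given here. The list median was 0.08 on the diet and −0.03 with metformin, beside 0.06 and −0.02 for all probe sets. Srebf1, the sterol regulatory element-binding factor that drives lipid synthesis genes, ranged from 446 to 770.3 in MCD+HF+Met livers and from 243 to 472 in MCD+HF livers, against 796 to 1164 in NC livers. It fell by 1.23 on the diet (SE 0.20, limma adjusted p = 0.000124), and its difference of 0.69 with metformin had a limma adjusted p of 0.0692. Mlxipl, which encodes the carbohydrate-sensing factor ChREBP, fell by 1.12 on the diet (SE 0.14, limma adjusted p = 1.08e-05), and Pnpla2, the adipose triglyceride lipase, rose by 1.02 (SE 0.16, limma adjusted p = 8.83e-05). Of 7 metabolic genes known to answer to AMPK, 1 rose and 3 fell on the diet, beside 25.4% of all probe sets called higher and 18.4% called lower, with a median of −0.31 beside 0.06. Scd1, the stearoyl-CoA desaturase, averaged 532 ± 534 in MCD+HF+Met livers and 149 ± 71.6 in MCD+HF livers, against 12641 ± 1069 in NC livers, and fell by 6.42 on the diet (SE 0.46, limma adjusted p = 2.78e-08). With metformin 1 of the 7 fell, beside 2.21% of all probe sets: Mlycd, the malonyl-CoA decarboxylase, by 0.48 (SE 0.12, limma adjusted p = 0.0360), a call lost without any 1 of MCD+HF replicates 2, 3 and 4 or of the 4 MCD+HF+Met livers (limma adjusted p between 0.0533 and 0.100).

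**Figure D5:**
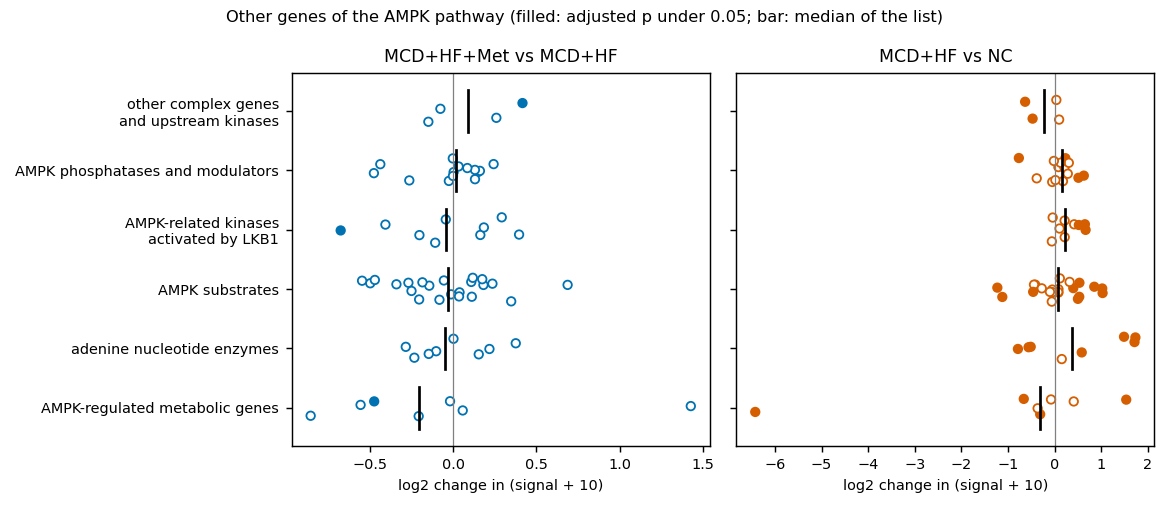
Change on the log2(signal + 10) scale of the tested genes of 6 pathway lists, for MCD+HF+Met against MCD+HF on the left and MCD+HF against NC on the right; points are genes, filled points have an adjusted p under 0.05 and bars are list medians. The filled points on the left are Cab39l, Snrk and Mlycd, and the far point on the right, at −6.42, is Scd1.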

How the data were processed

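Total RNA of 12 livers, 4 each from the MCD+HF+Met, MCD+HF and NC groups, was measured on 1 array per liver, and groups were taken from the sample labels. The values used are the signal intensities deposited by the authors, computed with GCOS with global scaling of each array's average to 100; the arrays' 2% trimmed means were 100. They are linear intensities, not counts. No column without a sample was present.

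Each signal had 10 added before log2 was taken. Of 45101 probe sets, the 22832 that averaged 20 or more over the 12 arrays were kept, and the 64 control probe sets were left out. Of all probe sets, 34945 had 1 gene symbol in the platform annotation, 932 had several and 9160 were unnamed here. limma 3.58.1 in R 4.3.3 was fitted to the 3 groups in 1 model with an intensity trend, and p-values were adjusted by Benjamini-Hochberg over all probe sets kept. Paralog differences were compared by exact permutation tests with scipy 1.17.1. The scripts were tested on simulated data. The livers are labelled as separate samples.

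Each of the 9 genes was named whatever its change. From each pathway list, genes were named from the up to 4 with the largest absolute change among those called. For a gene of the 9 called with a change of at least 0.58, the 3 nearest profiles were named. The 9 genes and the lists were chosen with earlier results of these data known. Cell type markers were Alb, Ttr, Apoa1, Apob, Cps1, Hnf4a and Arg1 for hepatocytes, with lists of the same kind for macrophages, stellate cells, cholangiocytes, endothelium, neutrophils, lymphocytes and skeletal muscle. The 4 cholangiocyte and 2 neutrophil markers tested all rose on the diet, beside 25.4% of all probe sets called higher. Of 6 endothelial markers 1 rose and 2 fell, which is 50% beside 43.8% of all probe sets, a share near the background. None of these markers passed the test with metformin, beside 3.44% of all probe sets. Alternatives were other offsets, filters, normalizations and probe sets, a replicate block, robust variances, a fit of only the compared groups, omission of each liver, and the methods' t-test. Promoters were matched by symbol to RefSeq for all 9 genes, in build GRCm38.p6; protein sequences were not used here.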

Additional observations from a re-analysis of the deposited data

Results flagged for a closer look

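Of 57 combinations of a probe set of the 9 genes and a group, 3 held a liver far from the other 3 of its group, judged by its gap to the nearest of them relative to the range of the group (over 0.829). About 1 group in 20 does so by chance. On the Prkag1 probe set 1433533_x_at, MCD+HF replicate 3 had a signal of 29.0, and the other MCD+HF livers had 54.2 to 55.9. On the Camkk2 probe set 1424475_at, MCD+HF+Met replicate 3 had 44.8, with the others at 30.8 to 32.3, and NC replicate 3 had 40.7, with the others at 28.8 to 30.4. None of these is the brightest probe set of its gene.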

How the results depend on the processing

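The 7 called changes of the 9 genes kept their direction in all 157 alternatives and their call in 144. The 13 lost calls were those of Prkaa1 and Stk11 given above, Prkab1 on the diet and Cab39 in MCD+HF+Met against NC livers on their second probe sets, and, with the methods' t-test, Prkaa1 on the diet (adjusted p = 0.0671) and Stk11 in MCD+HF+Met against NC livers (adjusted p = 0.0607). By that test Prkaa1 passed in MCD+HF+Met against NC livers (adjusted p = 0.0469). The methods' rule joins an unadjusted t-test to a change of more than 1.5-fold and a GCOS change call. Here the fold was taken from log2 signals with the offset added, not from the GCOS signal log ratio, and change calls were not used. By the unadjusted t-test with that fold, 1 gene was called in MCD+HF against NC and 1 in MCD+HF+Met against NC livers. The methods' full rule was not tested. Whether replicate numbers pair the livers was not settled: correlations of same-numbered deviations ran from −0.13 to 0.25. Differently numbered livers were not set beside them. With a replicate block, Prkag1 on the diet passed the test (−0.44, limma adjusted p = 0.0430), and so did 5 of the 9 genes in place of 4; among the list genes named above, the calls of Cab39l (limma adjusted p = 0.0515) and Mlycd (limma adjusted p = 0.0525) with metformin were lost under it. The methods describe no adjustment of their t-test. With Benjamini-Hochberg adjustment of that t-test, the metformin calls of Snrk, Cab39l and Mlycd were all lost (adjusted p = 0.142, 0.107 and 0.142). Those of Cab39l and Mlycd were also lost with no filter (limma adjusted p = 0.0515 and 0.0561). Fitting only the compared groups lost both as well (limma adjusted p = 0.0536 and 0.0618). Mlycd also lost its call with arrays centred on the median (limma adjusted p = 0.0707).

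Signs turned only in changes that had not passed the test, apart from the list gene Cpt1a in MCD+HF+Met against NC livers (0.00034 with quantile normalization), and the cause was not tested. With metformin, centring on the median gave 0.050 for Prkaa2, 0.053 for Prkab2 and 0.031 for Camkk2, quantile normalization 0.076 for Prkab2 and 0.054 for Camkk2, and an offset of 32 gave 0.0013 for Prkab2. Other probe sets gave 0.037 and 0.39 for Prkaa2, 0.029 and 0.014 for Prkag2, −0.064 for Cab39 and 0.037 for Camkk2. For MCD+HF against NC livers, centring gave −0.11 for Prkaa2, and other probe sets −0.15 and −0.28 for Prkaa2, 0.59 for Prkag1, −0.36 for Prkag2 and 0.043 for Camkk2. For MCD+HF+Met against NC livers, centring gave −0.055 for Prkaa2, and other probe sets −0.11 for Prkaa2, 0.031 for Prkab1, 0.77 for Prkag1, −0.33 for Prkag2 and 0.081 for Camkk2. For Prkag1 minus Prkag2, the other Prkag1 probe set gave 0.37 in MCD+HF against NC and 0.63 in MCD+HF+Met against NC livers, and another Prkag2 probe set gave 0.17 in MCD+HF+Met against NC livers.

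Leaving out single livers turned the sign of small changes. With metformin these ran from −0.13 to 0.20 for Prkaa2, −0.10 to 0.061 for Prkab2, −0.15 to 0.019 for Prkag2, −0.016 to 0.074 for Cab39, −0.070 to 0.025 for Camkk2 and −0.36 to 0.00044 for Prkaa1 minus Prkaa2. Set against NC, MCD+HF livers ran from −0.044 to 0.11 for Prkaa2 and −0.27 to 0.056 for Camkk2, and MCD+HF+Met livers from −0.10 to 0.23 for Prkaa2, −0.32 to 0.015 for Prkag1 and −0.30 to 0.034 for Camkk2.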
